A study of Mus musculus with 6 samples.

Results

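The 10 genes described here encode the LIF and gp130-STAT3 pathway and were taken by symbol: Lif, Lifr, Il6st, Stat3, Socs3, Jak1, Il6, Il6ra, Il11 and Il11ra1. All 10 were among the 44788 genes of the count table, and 8 of them had enough reads to be tested. Endometrium was collected from ICR mice, an outbred strain, on day 4 of pregnancy. In the agonist group, females received the GnRH agonist Decapetyl (spelled so in the labels) by intraperitoneal injection at 1.5 µg per 100 g of body weight a day on days 3 to 9 of estrus. The group without agonist received the solvent alone. All females of both groups had received oral tamoxifen as newborns, at 2.7 µmol/kg from day 2 to day 5 of life, which induces adenomyosis, the growth of endometrial glands and stroma into the uterine muscle. Injections began after 75 days, each group had 8 mice, and mating followed 4 weeks later. Endometrium was scraped only from uteri in which histology had shown adenomyosis. There were 3 libraries of each group, and no mice without tamoxifen were analysed here. Which mouse or mice each library came from is not labelled, so p-values here speak only of the spread among these 6 libraries, part of which may be technical.

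LIF is a cytokine that the glands of the mouse uterus secrete on the day of implantation, and females that lack it cannot implant embryos. It binds its own receptor LIFR, which pairs with gp130, the signalling subunit encoded by Il6st that the receptors for interleukin-6 and interleukin-11 also use. The kinase JAK1 then phosphorylates STAT3, which enters the nucleus, and SOCS3, one of the genes that STAT3 switches on, shuts the receptor complex down again. Signalling by STAT3 rests on phosphorylation, which RNA levels do not measure.

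Of the 8 genes tested, the receptor gene Lifr lay higher in all 3 agonist libraries than in any library without agonist, and the receptor gene Il6ra lay lower in all 3. The ligand Lif averaged a 2.39-fold lower level with wide overlap, and the shared machinery, Il6st, Jak1 and Stat3, overlapped between the groups. No gene of the 10 passed the adjusted threshold of 0.05 in edgeR's quasi-likelihood test. That was also so for every gene of the table: 0 of the 16581 tested genes (0%) passed, where DESeq2 called 394 and limma-voom 0. The unadjusted edgeR p was under 0.05 for 2 of the 8 (9.26% of all tested genes), with Lifr higher (4.17% of all) and Il6ra lower (5.09%). By DESeq2, which called 2.43% of its 16216 genes, 1 member passed the adjusted threshold as higher, Lifr (0.87% of all), and 0 as lower (1.56%). The median log2 fold change was -0.27 over the 8 tested members and 0.018 over all tested genes. The groups did not overlap in 2 of the 8 members (14.5% of all tested genes), upward in Lifr (6.94% of all) and downward in Il6ra (7.61%). Levels are CPM, read counts scaled to a common library size, with TMM factors. Library depth ran from 11720958 to 14104266 counts, at which 3 counts, the most that a count of 0 allows, correspond to 0.204 to 0.276 CPM for counting error alone.

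**Figure D1:**
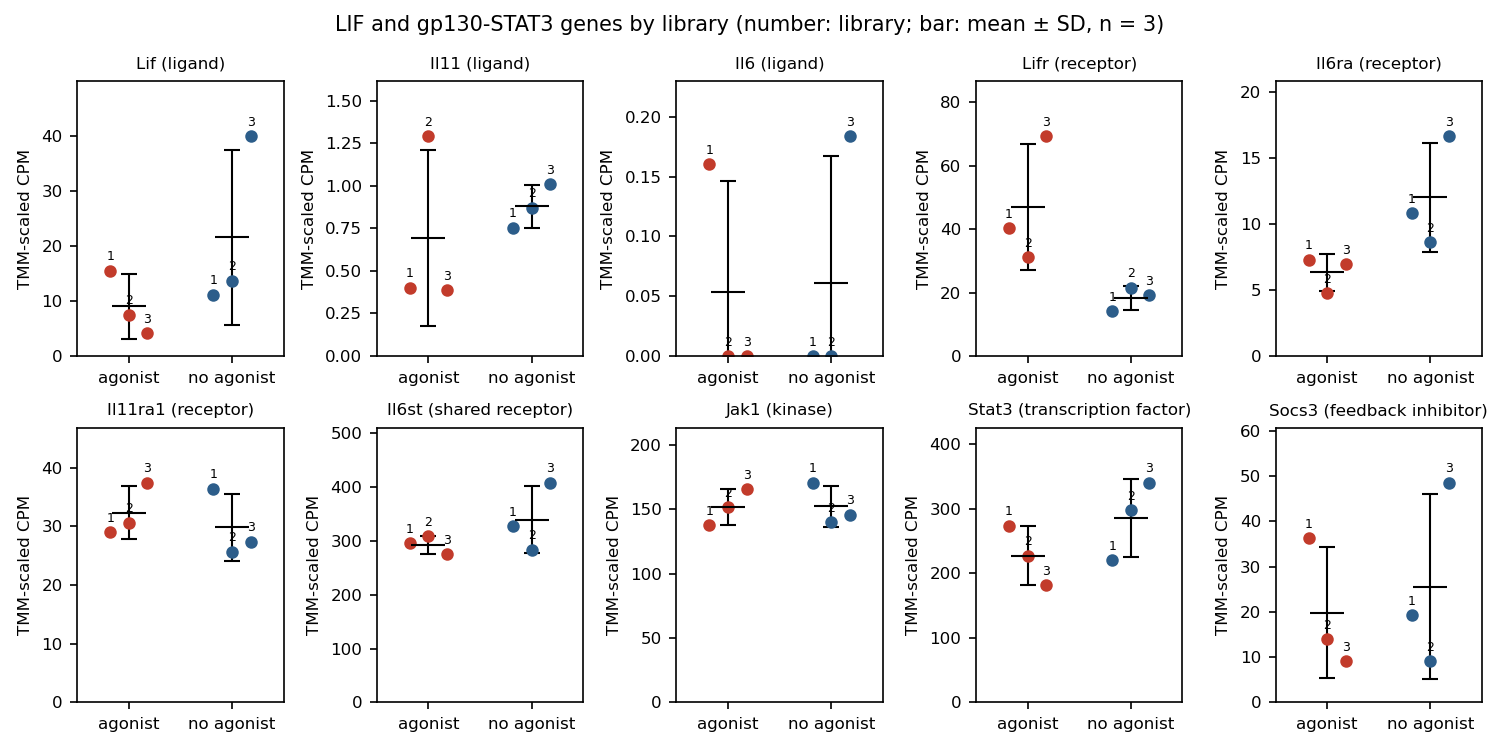
TMM-scaled CPM (vertical axes, each from 0) of the 10 genes in the 3 agonist libraries (red, left) and the 3 libraries without agonist (blue, right), with the library number beside each point and the mean ± SD as a bar. Lifr separates upward and Il6ra downward, while no-agonist library 3 is the highest library for Lif, Il6st, Stat3, Socs3 and Il6ra.

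The promoters of Lif, Lifr and Socs3 are shown because they belong to the ligand, its receptor and the feedback gene whose levels the following paragraphs compare. Each runs from 250 bases before to 50 bases after a RefSeq start site on GRCm38.p6, written 5′ to 3′ in the direction of transcription. Lif lies on the plus strand at chr11:4257318-4257617, Lifr on the plus strand at chr15:7129322-7129621 and Socs3 on the minus strand at chr11:117969317-117969616. Another RefSeq promoter of Lifr, at chr15:7140292-7140591, is not shown. Capitals mark TTCNNNGAA, the letters to which STAT proteins bind, which read alike on both strands.
Lif: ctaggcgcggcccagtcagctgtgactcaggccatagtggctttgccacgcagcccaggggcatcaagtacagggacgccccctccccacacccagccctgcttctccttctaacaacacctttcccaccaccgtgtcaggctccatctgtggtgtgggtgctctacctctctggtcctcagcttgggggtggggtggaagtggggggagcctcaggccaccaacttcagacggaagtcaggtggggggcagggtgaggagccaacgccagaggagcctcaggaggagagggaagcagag
Lifr: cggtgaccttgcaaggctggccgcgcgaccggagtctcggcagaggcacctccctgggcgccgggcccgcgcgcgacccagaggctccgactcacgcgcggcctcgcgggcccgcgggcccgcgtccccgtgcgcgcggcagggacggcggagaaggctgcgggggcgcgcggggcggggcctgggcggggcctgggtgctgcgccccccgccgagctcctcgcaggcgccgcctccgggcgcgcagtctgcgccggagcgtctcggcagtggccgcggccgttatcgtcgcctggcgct
Socs3: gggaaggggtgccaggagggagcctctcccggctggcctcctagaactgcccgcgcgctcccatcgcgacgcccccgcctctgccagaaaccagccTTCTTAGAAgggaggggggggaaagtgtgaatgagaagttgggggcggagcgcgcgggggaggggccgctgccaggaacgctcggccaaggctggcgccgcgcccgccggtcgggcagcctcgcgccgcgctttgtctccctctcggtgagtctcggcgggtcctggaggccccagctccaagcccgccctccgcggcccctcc
Of the 13 RefSeq promoters that matched the 10 genes, only this one of Socs3 held the motif, as TTCTTAGAA beginning 154 bases before the start site. Among all 32817 promoters of that length, 2722 held it (8.29%). A match of letters is no evidence of binding, and its absence from a window says nothing of the factor.

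Among the ligands, Lif (chromosome 11, 4257557 to 4272514, GRCm38) measured 15.5, 7.47 and 4.08 CPM in the agonist libraries, against 11.1, 13.7 and 39.9 CPM in the libraries without agonist. The groups overlapped, with agonist library 1 above no-agonist libraries 1 and 2 and with no-agonist library 3 far above the rest. Means were 9.01 ± 5.86 and 21.5 ± 15.9 CPM (SD, n = 3 each), a log2 fold change of -1.26 ± 0.63 SE with a 95% interval of -2.72 to 0.21 (edgeR adjusted p = 0.601). The size of that difference rested on no-agonist library 3: without it the log2 fold change was -0.45, and without agonist library 1 it was -1.88.

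The other ligands were scarce. Il11, which in the mouse serves decidualization, the conversion of stroma that follows implantation, had 5, 19 and 5 reads in the agonist libraries and 10, 10 and 11 reads in those without agonist. Its levels of 0.401, 1.29 and 0.385 CPM enclosed the 0.755, 0.870 and 1.01 CPM of the other group, and its counts were below the filter for testing. Il6, an inflammatory cytokine, had 2 reads in agonist library 1, 2 in no-agonist library 3 and 0 in the 4 remaining libraries. A difference in Il6 was not detectable at this depth.

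The ligand-binding receptors did not move together. Lifr (chromosome 15, 7090614 to 7197489) measured 40.3, 31.2 and 69.2 CPM in the agonist libraries, against 14.1, 21.5 and 19.1 CPM without the agonist. Every agonist library lay above every other one, and agonist library 3 was the highest. The means of 46.9 ± 19.9 and 18.2 ± 3.76 CPM (SD, n = 3 each) gave a 2.57-fold higher level, a log2 fold change of 1.36 ± 0.33 SE with a 95% interval of 0.59 to 2.14. Its unadjusted p of 0.00382 in edgeR's quasi-likelihood test ranked 202 among the 16581 genes, and its adjusted p of 0.310 did not pass. DESeq2 gave Lifr an adjusted p = 0.0210, and edgeR's likelihood ratio test 0.0290, so its call depends on the tool. Over 16 alternatives the adjusted p ranged from 0.0210 to 0.668 and the log2 fold change from 0.97, without agonist library 3, to 1.60.

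Il6ra, the receptor subunit that binds interleukin-6 (chromosome 3, 89864059 to 89913196), measured 7.30, 4.75 and 6.92 CPM in the agonist libraries, against 10.8, 8.61 and 16.6 CPM in those without agonist. The 3 agonist libraries lay below the 3 others, although the nearest values, 7.30 and 8.61 CPM, were close. The log2 fold change was -0.92 ± 0.36 SE with a 95% interval of -1.77 to -0.082 (edgeR adjusted p = 0.505, unadjusted p = 0.0354), and without no-agonist library 3 it was -0.61 (unadjusted p = 0.138). Its unadjusted p was also above 0.05 without agonist library 2 (0.101), agonist library 3 (0.0576) or no-agonist library 1 (0.0547). An antisense gene, Gm42809, overlaps 242 exonic bases of Il6ra in GENCODE M21. Whether counting used strand is not stated in the labels or headers, and reads of the pair cannot be told apart.

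Il11ra1, the receptor through which interleukin-11 acts, was level between the groups. Agonist libraries held it at 29.0, 30.6 and 37.4 CPM, the others at 36.4, 25.7 and 27.4 CPM (log2 fold change 0.12 ± 0.22 SE, 95% interval -0.39 to 0.63, edgeR adjusted p = 0.918). The mouse genome holds close copies of this gene: 46.3% of the 4690 distinct 50-base stretches of its annotated transcripts also occur in Gm13305, some of them in Il11ra2 too. Those copies held 2 and 4 reads in all 6 libraries together, against 2373 for Il11ra1. How reads that match several copies were counted is not stated in the labels or headers, and the level of Il11ra1 is uncertain.

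Il6st, which encodes gp130 itself, stood at 296, 309 and 275 CPM with the agonist and at 327, 284 and 408 CPM without it. The groups overlapped, and the log2 fold change of -0.21 ± 0.21 SE had a 95% interval of -0.71 to 0.29 (edgeR adjusted p = 0.828). Jak1, the kinase bound to gp130, stood at 138, 151 and 166 CPM in the agonist libraries and at 170.4, 140.1 and 146 CPM in the others. Its log2 fold change was -0.0060 ± 0.19 SE, with a 95% interval of -0.44 to 0.43, and it turned positive under 7 of the 16 alternatives. The intervals of Jak1 and Il6st exclude a 2-fold difference in either direction, as do those of Il11ra1 and Stat3.

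Stat3, the transcription factor of the pathway, measured 273, 227 and 181 CPM in the agonist libraries, against 219.7, 297 and 339.6 CPM in the libraries without agonist. The ranges overlapped (log2 fold change -0.33 ± 0.25 SE, 95% interval -0.92 to 0.26, edgeR adjusted p = 0.750). Socs3, its feedback inhibitor, measured 36.3, 13.99 and 9.08 CPM with the agonist and 19.2, 9.05 and 48.5 CPM without it. Socs3 spread about as widely within each group as across all 6 libraries, and its log2 fold change of -0.37 ± 0.69 SE (95% interval -1.97 to 1.22, edgeR adjusted p = 0.916) became 0.48 once no-agonist library 3 was left out, and -1.14 once agonist library 1 was. Its 2 highest libraries, no-agonist library 3 and agonist library 1, come from different groups.

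**Figure D2:**
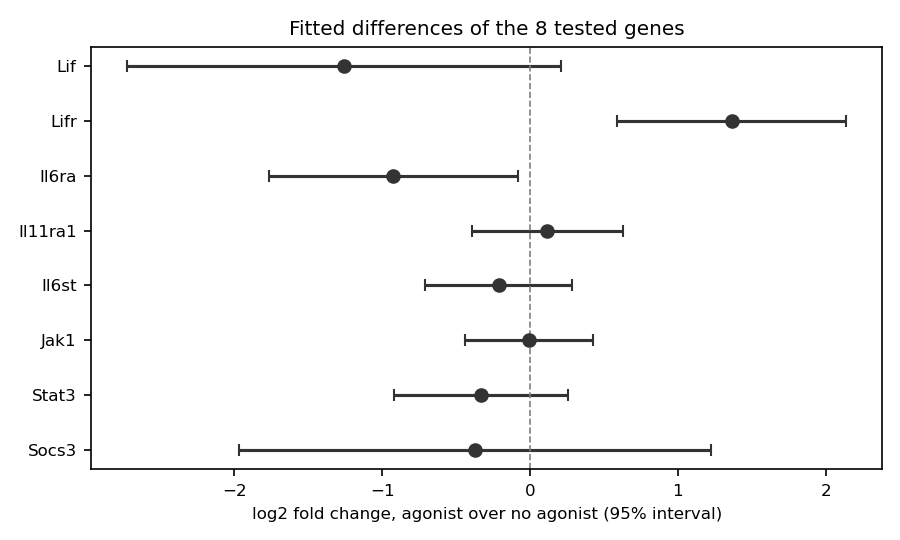
Log2 fold change, agonist over no agonist, of the 8 tested genes (points) with 95% intervals from edgeR's quasi-likelihood fit (bars), and a dashed line at 0. The intervals of Lifr (0.59 to 2.14) and Il6ra (-1.77 to -0.082) leave out 0, and those of Lif and Socs3 are the widest.

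Ratios of reads within a library do not depend on the scaling between libraries. The reads of Lif per read of Lifr numbered 0.384, 0.2397 and 0.0589 in agonist libraries 1 to 3, against 0.786, 0.636 and 2.09 in the libraries without agonist. All 3 agonist libraries lay below all 3 others, and the geometric means differed 5.77-fold (log2 difference -2.53). Leaving out single libraries gave log2 differences from -3.09 to -1.74. The directions of Lif and Lifr were known when this ratio was chosen, so it has no test. Reads of Lifr per read of Il6st were 0.136, 0.101 and 0.252 in the agonist libraries and 0.0431, 0.0758 and 0.0468 in the others, and the groups did not overlap. Il6ra per Il6st stood at 0.0247, 0.0154 and 0.0252 with the agonist and at 0.03296, 0.0304 and 0.0408 without it, again without overlap. Lifr and Il6ra were already separate on their own, so these ratios have no test either. Socs3 per Stat3 overlapped between the groups, at 0.133, 0.0617 and 0.0501 with the agonist and 0.0876, 0.0305 and 0.143 without it. These ratios describe RNA in whole tissue, in which fewer cells of a type and less RNA per cell cannot be told apart.

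**Figure D3:**
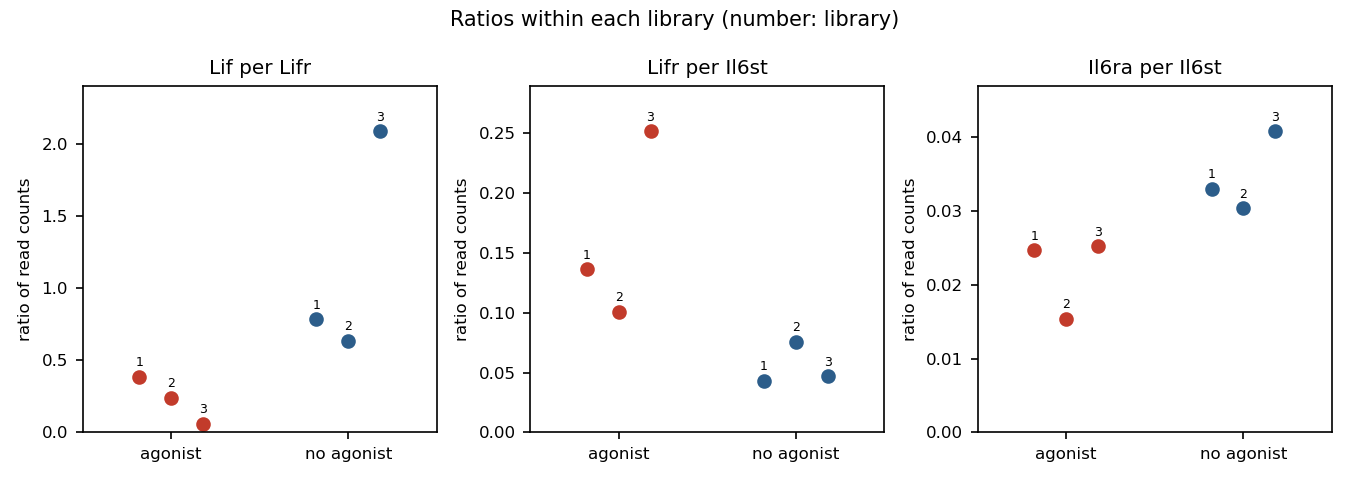
Ratio of read counts within each library (vertical axes, each from 0) for Lif per Lifr, Lifr per Il6st and Il6ra per Il6st, with agonist libraries in red on the left and libraries without agonist in blue on the right. In each panel the groups are separate, with Lif per Lifr at 0.0589 to 0.384 in the agonist libraries against 0.636 to 2.09 in the others. Socs3 per Stat3, which overlapped between the groups, is not drawn.

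Levels of different genes were set beside each other only after division by the length of the annotated exons, as CPM per kilobase. Averaged over the 6 libraries, the order from high to low was Il6st, Stat3, Jak1, Socs3, Il11ra1, Lif, Lifr, Il6ra, Il11 and Il6. On this scale Il6st averaged 26.4 ± 1.52 in the agonist libraries and 30.6 ± 5.68 without the agonist (SD, n = 3 each), and Il6ra 0.732 ± 0.159 and 1.39 ± 0.479. The ranges of neighbours overlapped from Il6st down to Il6ra save between Jak1 (19.1 to 23.6) and Socs3 (3.13 to 16.8). Those of Il6ra and Il11 met too, at 0.5501 and 0.62, and Il6 lay below Il11 in every library. Both Lif and Lifr, and Socs3 and Il11ra1, exchanged places between the groups: Lifr averaged 4.35 ± 1.85 and Lif 2.07 ± 1.35 CPM per kilobase with the agonist, against 1.69 ± 0.349 for Lifr and 4.95 ± 3.66 for Lif without it. Il11ra1 averaged 7.23 ± 0.999 and Socs3 6.84 ± 5.01 with the agonist, on the same scale. Without it the means were 6.67 ± 1.29 for Il11ra1 and 8.85 ± 7.08 for Socs3. For this pair the exchange was one of means only and rested on no-agonist library 3 (Socs3 16.8, Il11ra1 6.12). In no-agonist libraries 1 and 2 Il11ra1 lay above Socs3, at 8.14 and 5.74 against 6.66 and 3.13. In agonist library 1 Socs3 lay above Il11ra1, at 12.5 against 6.48. With the longest transcript as the length, Stat3 came before Il6st and Il11ra1 before Socs3.

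The libraries also differed in RNA of other tissue. No-agonist library 3 and agonist library 1, the highest libraries for Lif and Socs3, also held the most smooth muscle RNA: the summed level of 9 markers was 11961, 2979 and 3651 CPM in the agonist libraries and 8126, 7665 and 19514 CPM in the others, with 0 of the 9 markers absent. The immediate early genes Fos and Junb followed the same libraries. Both belong to the list of STAT3 target genes described below and were picked out of it after their values were seen. Fos stood at 380.3, 14.8 and 70.6 CPM in the agonist libraries and at 26.7, 38.9 and 673 CPM in those without agonist, and Junb at 213, 43.9 and 57.1 CPM against 61.3, 88.6 and 251 CPM. Their part in the levels of Lif and Socs3 was not tested. With no-agonist library 3 and agonist library 1 both left out, the log2 fold change of Lif was -1.09, of Socs3 -0.29, of Il6ra -0.73 and of Lifr 1.50. Agonist library 1 and no-agonist library 2 stood apart in 18S ribosomal reads, with 1.94% and 3.31% of counts against 0.254 to 0.369% in the others. Without that pair the log2 fold change was -2.13 for Lif, -1.54 for Socs3, -1.22 for Il6ra and 1.60 for Lifr, and the part of 18S reads in these values was not tested.

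All 10 epithelium markers, keratins among them, lay lower with the agonist, with summed levels of 4535 to 6818 CPM in the agonist libraries and 8194 to 13113 CPM in the others. Of these markers 4 of 10 were separate between the groups, all downward (7.61% of all tested genes). Lifr lay higher in the group with the lower sums. In agonist libraries 1 to 3 the sums were 6818, 5617 and 4535 CPM, with Lifr at 40.3, 31.2 and 69.2 CPM. In no-agonist libraries 1 to 3 they were 8194, 13113 and 10699 CPM, with Lifr at 14.1, 21.5 and 19.1 CPM. Of the 9 macrophage and dendritic markers 8 lay lower, with sums of 433 to 990.4 CPM in the agonist libraries against 1053 to 2882 CPM. Groups were separate in 3 of the 9, Cd14, Itgam and Cd68, all downward (7.61% of all tested genes). DESeq2 passed 2 of the 9 as lower, Itgam and Cd68 (1.56% of its genes). Without Cd14 and Itgam, left out after their values were seen, the sums of the other 7 overlapped, at 298, 366 and 223 CPM in the agonist libraries and 574, 128 and 425 CPM in the others. For 6 of those 7, all but Cd68, no-agonist library 2 was the lowest of all. Endothelium markers lay higher in 8 of 8, with sums of 392 to 550.1 CPM against 289.7 to 363 CPM. The sums of NK and T cell markers (24.6 to 40.6 CPM with the agonist against 9.22 to 20.6 CPM) and of B and plasma cell markers (65.8 to 211 CPM against 30.5 to 59.2 CPM, most of it Igj) were also separate, both higher with the agonist. Stroma markers, 8 of 10 higher, summed to 3651 to 4681 CPM against 3424 to 5465 CPM. Uterine gland markers, 3 of 5 tested higher and 2 lower, summed to 317 to 732 CPM against 331 to 1000.3 CPM. Prom1, which lay lower with overlap, averaged 302 of the 486 CPM with the agonist and 532 of the 652 CPM without it. Of the 5 tested, 1 was separate, Cxcl15, upward (6.94% of all tested genes). It stood at 1.36, 82.2 and 69.8 CPM in the agonist libraries against 0.755, 1.04 and 0 CPM in the others. The unadjusted edgeR p was under 0.05 for 2 of the 5 as higher, Cxcl15 and Aldh1a1 (4.17% of all), and for 0 as lower (5.09%). The gland sum therefore mostly follows Prom1 and does not settle whether gland content differed. Red cell markers summed to 346, 396 and 1883 CPM in the agonist libraries and to 675, 1047 and 120 CPM in the others. Mesothelium and fat markers summed to 260, 33.6 and 210 CPM against 212, 24.5 and 97.4 CPM. Both sums overlapped between the groups. The part of these cells in the levels of Lifr, Il6ra and Lif was not tested. Epithelium and stroma markers were present as the label endometrium requires, while 4 of the 6 embryo and trophoblast markers, Cdx2, Pou5f1, Nanog and Hand1, had 0 reads in every library. The other two, Elf5 and Gata3, had 106 and 66 reads in all, at no more than 3.87 CPM (Elf5 in agonist library 2).

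**Figure D4:**
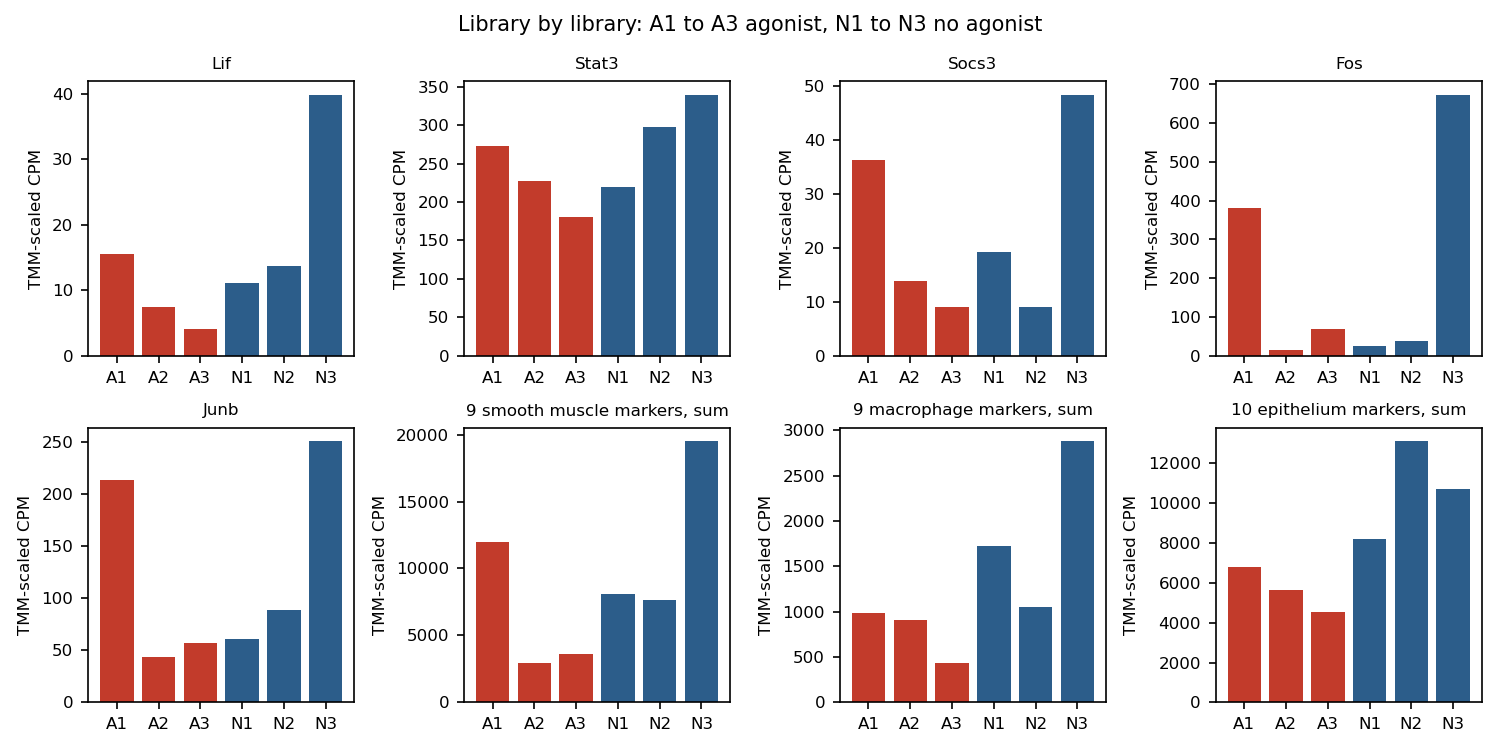
TMM-scaled CPM (bars from 0) in agonist libraries A1 to A3 (red) and no-agonist libraries N1 to N3 (blue) for Lif, Stat3, Socs3, Fos, Junb and the summed smooth muscle, macrophage and epithelium markers. N3 and A1 are the highest libraries for Lif, Socs3, Fos, Junb and smooth muscle, whereas epithelium sums separate the groups at 4535 to 6818 against 8194 to 13113 CPM.

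Other genes of the pathway, 90 in 8 lists of which 80 were tested, lay on both sides of 0. Under an unadjusted p of 0.05 in edgeR there were 7 higher genes and 6 lower ones, 13 of 80 against 9.26% of all genes, with 0 past the adjusted threshold. DESeq2 passed 3 higher and 2 lower, 5 of 80 against 2.43%. The median log2 fold change of the 80 was -0.16. Of the other gp130 ligands 4 of 8 were tested, 2 higher and 2 lower. Ctf1, which encodes cardiotrophin-1, measured 9.79 ± 1.17 CPM with the agonist and 7.65 ± 2.31 CPM without it, and Ebi3, a subunit of interleukin-27, 0.823 ± 0.135 and 1.46 ± 0.831 CPM. Of the other receptors, Osmr, which joins gp130 in the oncostatin M receptor, measured 29.2 ± 11.1 and 49.5 ± 30.6 CPM, and Il27ra 5.46 ± 1.66 and 3.09 ± 0.867 CPM, neither with an unadjusted p under 0.05, although Il27ra was separate between the groups. The sheddases Adam10 and Adam17, which release receptor ectodomains, had log2 fold changes of -0.18 ± 0.27 and -0.20 ± 0.18 SE.

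Of the 9 further JAK and STAT genes 2 lay higher and 7 lower, with 0 at an unadjusted p under 0.05. Only Jak2 was separate between the groups, upward (1 of 9, against 6.94% of all tested genes). Jak2 stood at 171, 212 and 289 CPM with the agonist and at 149, 167 and 149 CPM without it, so that the groups did not overlap (log2 fold change 0.54 ± 0.24 SE, edgeR adjusted p = 0.550). Stat5a averaged 92.3 ± 18.5 CPM with the agonist and 133 ± 41.5 CPM without it. The inhibitors were split evenly, with 8 of 16 higher and 8 lower. Socs7 measured 34.7 ± 2.52 and 25.2 ± 1.13 CPM, and Pias2, a member of the family that inhibits activated STAT proteins, 49.9 ± 8.22 and 36.5 ± 3.39 CPM, both separate between the groups with unadjusted p of 0.0348 and 0.0494 in edgeR's quasi-likelihood test. They were 2 of the 16 inhibitors. Of all tested genes, 4.17% were higher at an unadjusted p under 0.05 and 6.94% were separate upward.

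The branch from gp130 to the Ras-MAPK cascade had 7 of 13 genes higher and 6 lower. The unadjusted edgeR p was under 0.05 in 2 of the lower ones (5.09% of all tested genes) and in 0 of the higher ones (4.17%). Groups were separate downward in 2 of the 13 (7.61% of all). Map2k1, the kinase MEK1, measured 74.9, 78.4 and 58.6 CPM in the agonist libraries, against 110.5, 122 and 169 CPM without the agonist. The groups were separate, with a log2 fold change of -0.92 ± 0.23 SE (edgeR adjusted p = 0.317, DESeq2 adjusted p = 0.0375). The adapter Shc1 averaged 139 ± 15.0 and 192 ± 4.34 CPM (log2 fold change -0.47 ± 0.18 SE).

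Of the 24 tested STAT3 target genes 8 lay higher and 16 lower, with a median log2 fold change of -0.31 against 0.018 over all tested genes. The unadjusted p was under 0.05 for 2 of the higher and 4 of the lower ones (4.17% and 5.09% of all genes). Pim1, a kinase gene, measured 31.5, 21.4 and 16.6 CPM in the agonist libraries, against 40.5, 47.7 and 100.8 CPM without the agonist, lower in all 3 (log2 fold change -1.44 ± 0.40 SE, edgeR adjusted p = 0.337, DESeq2 adjusted p = 0.0386). Lbp, which encodes the lipopolysaccharide-binding protein, went the other way at 177, 238 and 286 CPM against 104.6, 67.4 and 120.1 CPM (log2 fold change 1.26 ± 0.29 SE, edgeR adjusted p = 0.285, DESeq2 adjusted p = 0.00776). The interleukin-1 receptor gene Il1r1 measured 65.1, 62.2 and 269 CPM with the agonist and 40.9, 23.9 and 13.7 CPM without it, separate between the groups with agonist library 3 far above the rest (edgeR adjusted p = 0.351, DESeq2 adjusted p = 0.0102). Muc1, the surface mucin, averaged 360.2 ± 197 and 799 ± 65.3 CPM.

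Uterine genes that LIF is known to affect, or that act with it at implantation, were tested for 8 of 12, with 5 higher and 3 lower and a median log2 fold change of 0.60. Msx1, a homeobox gene whose expression in the mouse uterus normally ends as implantation begins, measured 231, 392 and 429.8 CPM in the agonist libraries, against 95.9, 86.0 and 76.3 CPM in those without agonist. The groups stood far apart, and the call depends on the tool (edgeR adjusted p = 0.209, DESeq2 adjusted p = 3.1e-08). Igfbp3, which binds insulin-like growth factors, averaged 77.3 ± 39.8 and 29.0 ± 7.46 CPM, and Ihh, a hedgehog ligand of the epithelium best known as progesterone-induced, 16.9 ± 12.2 and 3.39 ± 3.79 CPM, both with overlap. The EGF-family ligands Areg and Ereg, which the uterus makes around implantation sites and which were picked out after their values were seen, had 0 reads in the agonist libraries and did not exceed 0.276 CPM in the others. They had 5 and 3 reads in all and were not tested. A difference in either was not detectable at this depth.

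**Figure D5:**
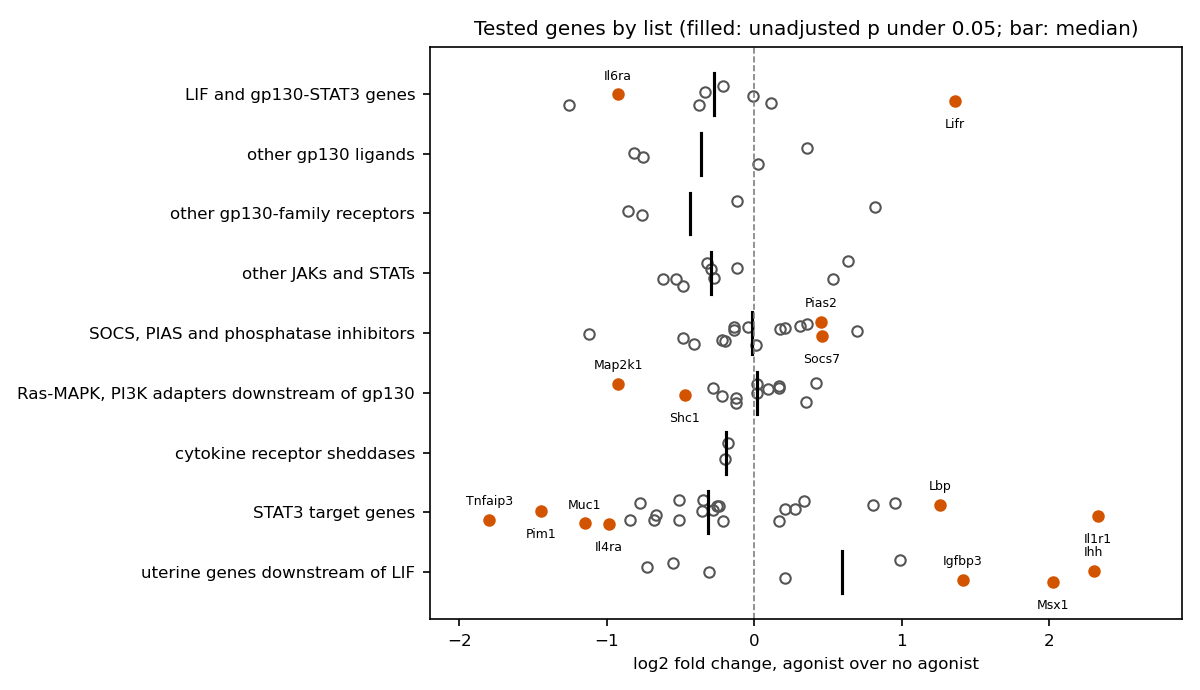
Log2 fold change, agonist over no agonist (horizontal axis), of each tested gene of the LIF and gp130-STAT3 set and of 8 lists of related genes, with filled named points for an unadjusted p under 0.05 and a black bar for the median of each list. Most lists straddle 0, and the median of the uterine genes around LIF is 0.60.

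Genes whose levels followed single members most closely were sought among 12867 tested genes of at least 5 CPM, by Pearson's r of log2 CPM over the 6 libraries. With 6 points and that many candidates, values near 1 occur by selection, and r is given as a description. Lif was followed by Mmp17 (r = 0.997), Ptk2b (r = 0.997) and Dnajc17 (r = 0.996). Mmp17, a membrane-bound metalloproteinase gene, averaged 14.7 ± 8.77 CPM with the agonist and 28.8 ± 18.9 CPM without it. Lifr was followed by Gm6477 (r = 0.986), Aamdc (r = 0.986) and Nol7 (r = 0.980), and Socs3 by Cela1 (r = 0.992), Neurl3 (r = 0.987) and Exoc3l4 (r = 0.985). Those beside Socs3 overlapped between the groups as Socs3 did, with Exoc3l4 at 13.8 ± 9.21 CPM with the agonist and 14.02 ± 8.73 CPM without it.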

How the data were processed

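The authors deposited whole-number read counts per gene symbol for 6 libraries of mouse endometrium, with no normalization recorded. Per the labels' protocols, RNA with an integrity number above 8.0 was made into libraries for single-end sequencing on Proton instruments. HTSeq 0.6.1 and the build mm10 (GRCm38) are named in the submitters' processing notes. Not given in the sources used here are the aligner, the annotation and whether strand was used.

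With R 4.3.3 and edgeR 4.0.16, genes were filtered with filterByExpr at its defaults, scaled by TMM factors and compared, agonist over no agonist, by the quasi-likelihood F-test without covariates, Benjamini-Hochberg adjusted over all 16581 tested genes. The common biological coefficient of variation was 0.375. The SE is the log2 fold change divided by the square root of F, and intervals use the test's degrees of freedom. DESeq2 1.42.0, limma 3.58.1, other scalings and filters, and fits without single libraries were alternatives. The test was tried on simulated data. Coordinates, exon lengths and transcripts are from GENCODE M21 (GRCm38), which held all 10 genes, and promoters are from RefSeq (GRCm38.p6), which matched all 10.

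All members are named. Of each list, up to 4 genes with an unadjusted p under 0.05 are named, or the 2 of smallest p where none had one, with further genes as stated. The members and lists were chosen with earlier results of these data known. Older symbols were used where the table has them, and 1 listed gene, Hras, was not matched.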

Additional observations from a re-analysis of the deposited data

How the results depend on the processing

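Over all genes tested, edgeR's quasi-likelihood test called 0, and its unadjusted p was under 0.05 for 691 higher and 844 lower genes (1192 and 520 with library totals alone). DESeq2 called 394, the likelihood ratio test 268, limma-voom 0, the test on every gene with a read 36, and leaving out single libraries 0 to 1. Choices added after the data were seen called 7 without agonist library 1 and no-agonist library 2, the libraries of highest 18S share (1.94% and 3.31%, against 0.254 to 0.369% in the others), and 1 without agonist library 1 and no-agonist library 3, those of most smooth muscle RNA. The count of members at an unadjusted p under 0.05 was 2. It was 3 (Lif, Lifr and Il6ra) with DESeq2 and with every gene with a read, 1 with library totals alone, 1 to 3 without single libraries (1, Lifr, without agonist library 2, agonist library 3 or no-agonist library 3), 4 without the libraries of highest 18S share (Lif, Lifr, Il6ra and Socs3) and 1 without those of most smooth muscle RNA. The same threshold was met over all genes by 796 higher and 973 lower of 16581 with DESeq2. With every gene with a read it was met by 1054 and 1147 of 28089, and without agonist library 1 by 888 and 1093 of 17046. It was met by 719 and 1187 of 16838 without the libraries of highest 18S share, and by 744 and 841 of 16761 without those of most smooth muscle RNA. Library totals alone put the median log2 fold change over tested genes at 0.18, against 0.018.

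Of 128 alternative fold changes of the 8 tested members, 118 kept direction and side of the adjusted threshold, 8 reversed and 2, of Lifr, passed it. Without single libraries Socs3 ranged from -1.14 to 0.48 (reversed without no-agonist library 3) and Jak1 from -0.072 to 0.082 (reversed without agonist library 1, 0.068, and no-agonist library 1, 0.082). Jak1 also reversed to 0.039 with upper-quartile factors, 0.16 with library totals, 0.0095 with the stricter filter, 0.010 without the libraries of highest 18S share and 0.037 without those of most smooth muscle RNA. The cause was not tested. The log2 difference in Lif per Lifr, -2.53, ranged from -3.43 to -1.74 when libraries were left out. Its sign could not change, because the groups did not overlap. The level order kept 6 of 10 places with the longest transcript as length. No paired analysis was possible because the labels give the groups no shared replicate numbers. Depth limits Il6 and Il11, whose fits over every gene with a read gave log2 fold changes of -0.16 and -0.33.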

Other observations

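The genes below were chosen after their values were seen and are given without a test. Stat2, a transcription factor of interferon signalling, was highest in no-agonist library 3 and agonist library 1. It stood at 102, 36.2 and 52.7 CPM with the agonist and at 57.3, 45.1 and 164 CPM without it. Osmr followed the same libraries, at 41.6, 25.7 and 20.2 CPM with the agonist and 30.7, 33.0 and 84.8 CPM without it.

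Coch, a uterine gene that depends on LIF in mice, stood at 33.4 CPM in agonist library 3 and at 0.883 CPM or less in every other library, and that library had the lowest Lif of the 6. Ovgp1, an oviduct glycoprotein gene, stood at 173 CPM in agonist library 1, against 14.2 and 3.85 CPM in the other agonist libraries and 1.21 to 2.94 CPM without the agonist.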
